A study of Arabidopsis thaliana with 6 samples.

Results

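Short introns, up to 100 bases wide, made up 61076 of the 120717 introns in the deposited intron table (50.6%). They were chosen by width and by place alone: of the 61804 introns of up to 100 bases, 728 overlapped another annotated locus and were left out. The 61076 introns lay in 16687 of the 22235 loci of the table. Longer introns free of other loci served for comparison, 53176 of them over 100 and under 500 bases wide, here called middle-width introns, and 4716 of 500 bases or more.

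An intron is cut from the precursor RNA by the spliceosome, which joins the flanking exons and leaves a junction that a sequencing read can span. In plants introns are mostly short and rich in A and U, and an intron that stays in the RNA is the commonest kind of alternative splicing. Such RNA may be unfinished precursor, or a product that is kept in the nucleus or degraded. Counts of reads in an intron do not tell these apart.

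Wild-type Arabidopsis thaliana seedlings of the Columbia ecotype were raised for 9 days in cycles of 12 h light and 12 h darkness at 22 °C. The light pulse group (3 libraries) was lit with white light for 2 h in the middle of the night, starting at ZT18 (hours after lights on). The dark control group (3 libraries) stayed in darkness, and both groups were harvested at ZT20. The source material is labelled as a pool of tissues, so fewer cells of a type and less RNA per cell cannot be told apart.

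The libraries held 8695843 to 12689543 gene counts each. Root markers summed to 165 to 184 CPM (counts scaled to library depth) in the light pulse libraries and 188 to 203 CPM in the dark control libraries, a difference carried by PHO1, while SCR, COBL9 and EXPA7 averaged more in light. Shoot markers summed to 12736 to 13606 CPM in the light pulse libraries and 12045 to 12762 CPM in the dark control libraries, nearly all of it RBCS1A, while FIL and FAMA were lower in light and AS1 was higher. None of the 8 markers was at 0. Their part in the results was not tested. Rows annotated as ribosomal RNA took 1.95, 0.373 and 0.432% of gene counts in light pulse libraries A, B and C, and 0.519, 0.771 and 2.04% in dark control libraries A, B and C. The letters are those of the count columns and pair no libraries across groups. The labels do not tie the replicates to separate plates or sowings, so the spread behind each p-value may be technical.

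Widths of the short introns were bunched. Their median was 86 bases with quartiles of 80 and 92 bases, and 86 bases was also the commonest width (2743 introns). Only 439 introns were under 50 bases wide and 1997 were 50 to 69 bases wide, against 12482 of 70 to 79 bases, 25427 of 80 to 89 bases and 20731 of 90 to 100 bases. The narrowest were 1 base wide. Widths were spread evenly over the 3 reading frames, with 32.9% divisible by 3, 34.1% leaving 1 base over and 33.0% leaving 2.

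Splice junction reads drew a sharp lower limit. A junction with exactly the intron's boundaries, here its own junction, was listed for 50261 of the 61076 short introns (82.3%). It was listed for 0 of the 439 introns under 50 bases, and the narrowest junction anywhere in the table spanned 50 bases. At 50 to 69 bases the share was 50.4%, at 70 to 79 bases 81.1%, at 80 to 89 bases 84.6% and at 90 to 100 bases 85.0%. Intervals under 50 bases are listed as introns, but no junction in these files has their boundaries. The part of a lower limit on junction width in the alignment was not tested.

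**Figure D1:**
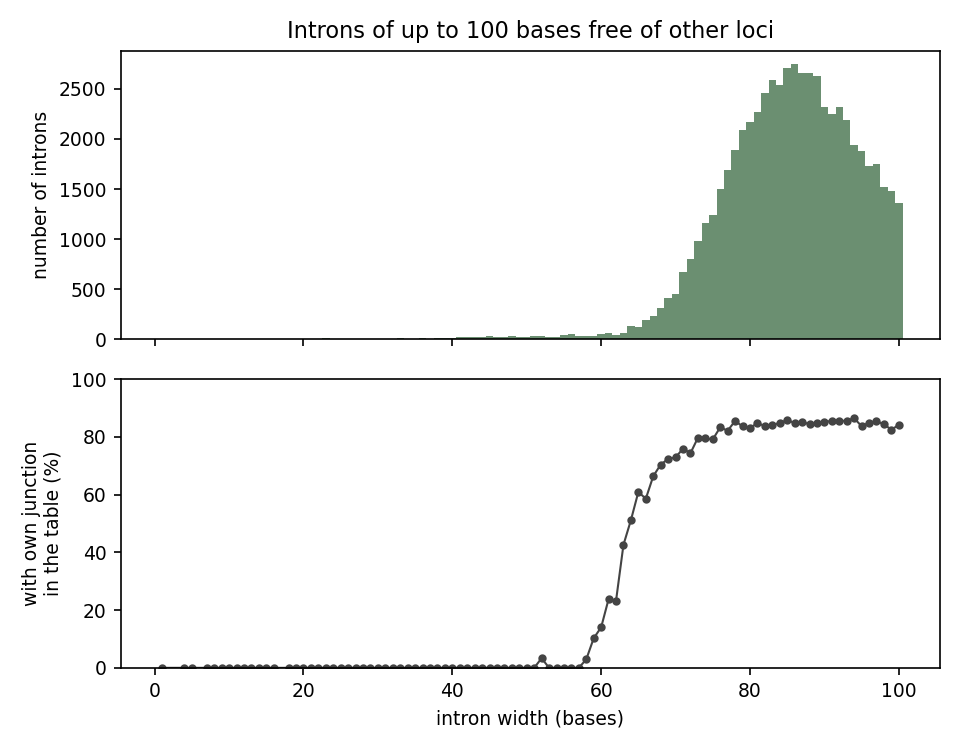
The upper panel plots the number of introns of up to 100 bases at each width in bases, and the lower panel the percentage of them whose own junction is in the junction table. Widths peak at 86 bases, and the share with an own junction climbs from 0 below 50 bases to over 80% at widths of 80 to 89 bases.

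Reads inside these introns were rare. The host gene passed the expression filter for 50698 of the 61076 (83.0%), and 48625 of those 50698 had their own junction (95.9%). Of the 50698, 17187 had 0 counts in all 6 libraries (33.9%), which allows up to 3 counts each, for counting error only. In any 1 library 22.7 to 27.0% of the 61076 introns held a count in the light pulse group and 23.6 to 25.1% in the dark control group. In 618 of the 48625 introns (1.27%) the counts in the intron exceeded those of its own junction.

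Usage of an intron is its count as a percentage of the count of its host gene in the same library, with no correction for length. Among the 40366 short introns whose host averaged 100 counts or more, the median usage over the 6 libraries was 0.0501%, the 90th percentile 0.493% and the 99th percentile 2.82%. A usage above 5% was reached by 148 introns and above 10% by 26. High usage went with a missing junction: 88 of the 148 (59.5%) and 7 of the 26 (26.9%) had their own junction, against 97.5% of all 40366. Counts were concentrated, with the top 611 introns holding 37.1% of all counts in short introns.

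The 6 introns of highest usage in well-counted hosts all lacked their own junction, and none differed between the groups in edgeR's quasi-likelihood test. The highest was intron I002 of AT1G13609 (chr1:4662879-4662933, TAIR10, 55 bases), with a usage of 46.0, 39.1 and 47.7% in the light pulse libraries and 45.0, 43.8 and 46.0% in the dark control libraries. The groups overlapped, and the log2 change was -0.02 ± 0.09 (SE, edgeR adjusted p = 0.936). Intron I001 of AT1G73885 (95 bases) averaged 33.7 ± 0.821% in light and 34.6 ± 0.872% in darkness (SD, n = 3 each). Introns of AT1G55990, AT1G51840, AT2G03330 and MYB48, which encodes a MYB transcription factor, averaged 20.6 to 32.2% in light and 18.5 to 30.5% in darkness. Their adjusted p ran from 0.611 to 0.997, none had an unadjusted p under 0.05, and DESeq2 called none.

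Taken as a class, short introns held a slightly larger share of their genes' counts in the light pulse libraries. Pooled usage, the sum of the intron counts over the sum of their hosts' counts, was 0.648, 0.643 and 0.638% in the light pulse libraries and 0.601, 0.575 and 0.564% in the dark control libraries. Every light pulse library lay above every dark control library, with means of 0.643 ± 0.00491% in light and 0.58 ± 0.0191% in darkness (SD, n = 3 each) and a ratio of 1.11, or 0.15 on the log2 scale. With the 728 overlapping introns kept this difference was 0.08.

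Because pooled usage also moves with which genes are abundant, it was set beside a mean in which each host kept the same weight in all libraries, its mean count. This fixed-weight usage was 0.156, 0.154 and 0.153% in light and 0.136, 0.132 and 0.131% in darkness, a ratio of 1.16 (0.22 on the log2 scale). The groups again did not overlap. The unspliced share, which replaces the host count by the intron's own junction (intron counts over intron plus junction counts), was 2.23, 2.21 and 2.18% in light and 2.03, 1.96 and 1.88% in darkness, a ratio of 1.13. The plain mean over the 40366 introns with well-counted hosts was 0.237, 0.231 and 0.236% in light and 0.212, 0.205 and 0.204% in darkness. The 4 measures moved the same way and by similar amounts, with an exact permutation p = 0.1 for each. They share the same intron counts, so they are not independent of each other. The median usage over the 50698 introns was 0 in every library and says nothing about a change.

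Usage was higher in light at most widths and at every place in the gene. Fixed-weight usage was higher in light by 0.24 on the log2 scale in introns of 50 to 69 bases, 0.24 at 70 to 79 bases, 0.22 at 80 to 89 bases and 0.20 at 90 to 100 bases, with no overlap between the groups in any of them. The 146 introns under 50 bases with an expressed host were the exception: their usage was 0.728, 0.846 and 0.722% in light and 0.748, 0.71 and 0.795% in darkness, and the groups overlapped. Introns flanked by others in their gene (38226) were higher by 0.21 and the first or last introns by position (11820) by 0.22. In the 652 short introns that were the sole intron listed for their gene, usage averaged 0.967 ± 0.045% in light and 0.758 ± 0.0228% in darkness (SD, n = 3 each), a log2 difference of 0.35. Exact permutation p was 0.1 in each of these width and place classes other than introns under 50 bases, where it was 0.8. Strand is not in the files, so first and last introns were not separated.

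The classes on either side of the width limit were set side by side. Introns of exactly 100 bases (1145) had a fixed-weight usage of 0.132, 0.129 and 0.13% in light and 0.112, 0.114 and 0.112% in darkness. Introns wider by 1 base (1052), just outside the limit, had 0.157, 0.168 and 0.153% in light and 0.158, 0.154 and 0.146% in darkness. The first pair of groups did not overlap and the second did. The difference between these neighbouring classes was not tested.

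The ratio of short introns to middle-width introns was higher in every light pulse library than in any dark control library. Pooled usage of the longer class was 0.923, 0.939 and 0.894% in light and 1.0, 0.991 and 0.948% in darkness, so it was lower in light where that of the short introns was higher. The log2 ratio of short to longer usage was -0.51, -0.55 and -0.49 in light and -0.73, -0.79 and -0.75 in darkness, a difference of 0.24 (exact permutation test over the 6 libraries, two-sided p = 0.1, the smallest that 3 against 3 libraries can give). With fixed weights the longer class too was higher in light, by 0.08, and the difference was 0.14 (exact permutation p = 0.1). With unspliced shares it was 0.21 (exact permutation p = 0.1), and the unspliced share of middle-width introns overlapped between the groups. Without the 1% of introns with the most counts, pooled usage of middle-width introns was 0.689, 0.699 and 0.669% in light and 0.69, 0.682 and 0.652% in darkness. These groups overlapped, and the difference between short and middle-width introns was then 0.12.

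Short introns were compared in the same way with introns of 500 bases or more. Pooled usage of those was 1.98, 1.93 and 1.78% in light and 1.8, 1.81 and 1.83% in darkness, which overlapped. Short introns moved by 0.09 more on the pooled scale (exact permutation p = 0.2), by 0.11 more with fixed weights (exact permutation p = 0.1) and by 0.13 more with unspliced shares (exact permutation p = 0.1). With overlapping introns kept, the pooled differences were 0.24 from introns of 500 bases or more and 0.19 from middle-width introns. Benjamini-Hochberg adjustment over the 8 comparisons of this kind that were made gave 0.133 for those at 0.1 and 0.2 for those at 0.2.

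**Figure D2:**
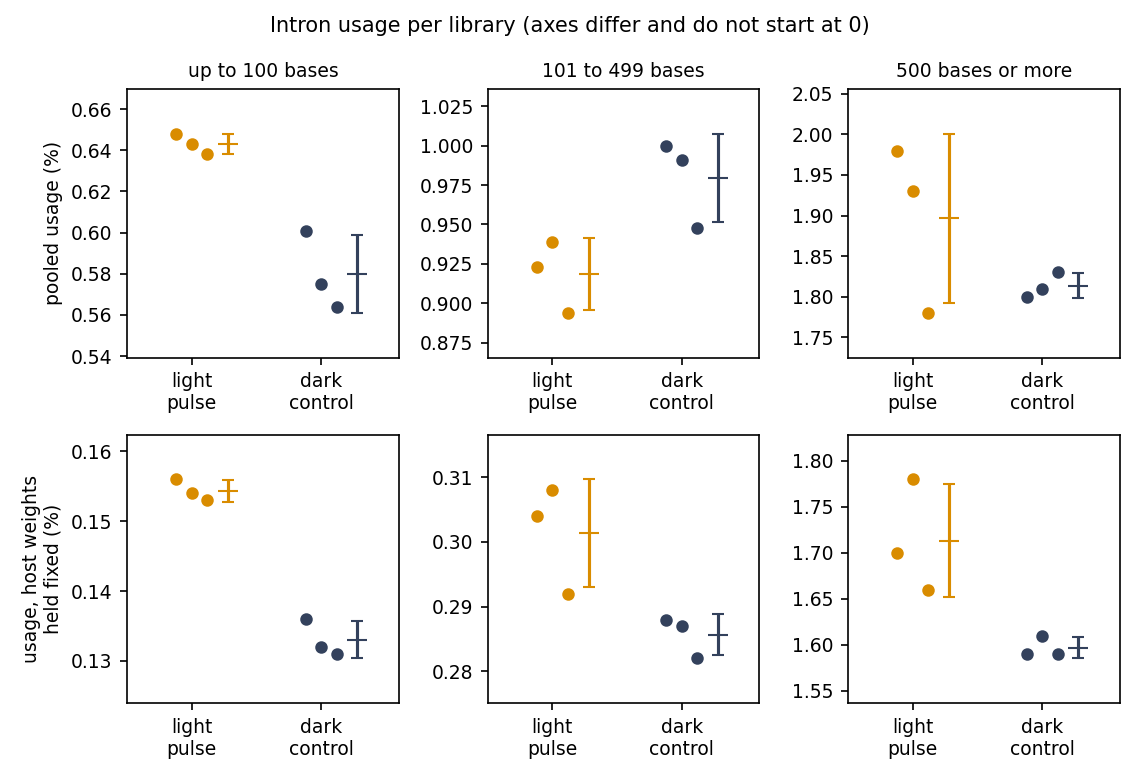
Pooled usage (upper row) and usage with host weights held fixed (lower row), each as a percentage, in every library for 3 width classes, with light pulse libraries left of dark control libraries; points are libraries and the bar is the mean ± SD of 3. In introns of up to 100 bases every light pulse library, at 0.638% or more, lies above every dark control library, at 0.601% or less.

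Usage was also set beside the change of the host gene, as a description. In short introns whose host rose 2-fold or more in light (2694) fixed-weight usage was higher by 0.19 on the log2 scale, in those whose host changed less (46245) by 0.20, and in those whose host fell 2-fold or more (1759) by 0.54. Leaving out the intron of SAG21, described below, brought the value for falling hosts to 0.40. The part of the host's own change in these values was not tested.

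For single introns the counts were thin. Only 700 of the 61076 short introns (1.15%, in 553 loci) passed the filter on low counts. The test was edgeR's quasi-likelihood one, run on intron counts relative to the host count, with p adjusted over all 3321 tested introns of the table. Among all 3321, 4.52% were called higher and 3.19% lower in light at an adjusted p under 0.05. Among the 700 short introns 42 were called higher (6.0%) and 13 lower (1.86%). In middle-width introns the shares were 3.69% higher and 3.5% lower, and in introns of 500 bases or more 5.21% higher and 3.87% lower. Either way, 7.86% of the short introns and 7.71% of all tested introns were called. These shares differ little from the background, and whether they differ at all was not tested.

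The median log2 change was 0.10 over the 700 short introns and 0.05 over all 3321. Without multiple-test adjustment 147 short introns had a p under 0.05, and 46 of them were lower in light. The like count over all 3321 is not given here, so these numbers are a description only. In 123 of the 700 every light pulse library was above every dark control library (17.6%, against 15.2% of all tested introns), and in 72 every light pulse library was below (10.3%, against 11.8%). A low-count intron can pass the filter through the group in which it is high: of the 42 called higher, 16 reached the count filter's cutoff of 0.854 CPM only in the light pulse group and 15 in all 6 libraries. Of the 13 called lower, 8 reached it only in the dark control group. Of all 700, 71 reached it only in the light pulse group, 58 only in the dark control group and 276 in all 6 libraries. Among called introns described below, RCA I004, LHCA1 I005, LHCB5 I002 and I003, AGT I001, DGAT3 I001 and AT5G20700 I001 reached it only in light. AT3G18680 I006, AT1G52710 I004, DUF5 I007, ADF11 I002 and BEH1 I001 reached it only in darkness. Their calls are descriptions only.

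The number of calls depended on the libraries and on the tool. Leaving out any 1 library gave 29 to 43 introns called higher and 5 to 9 called lower. The lower calls numbered 7 without light pulse library B, 6 without light pulse library C, 5 without dark control library A and 7 without dark control library B. In all 6 such fits 18 of the 42 and 4 of the 13 were called. Without light pulse library A and dark control library C, the libraries richest in ribosomal RNA, 10 were called higher and 3 lower. DESeq2 called 12 higher and 0 lower, with 60 and 17 at an unadjusted p under 0.05, and gave no adjusted p for 166 introns. All 55 called introns kept their sign in each of these fits. The like counts over all tested introns are not given for these fits, so the numbers describe the short introns only.

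**Figure D3:**
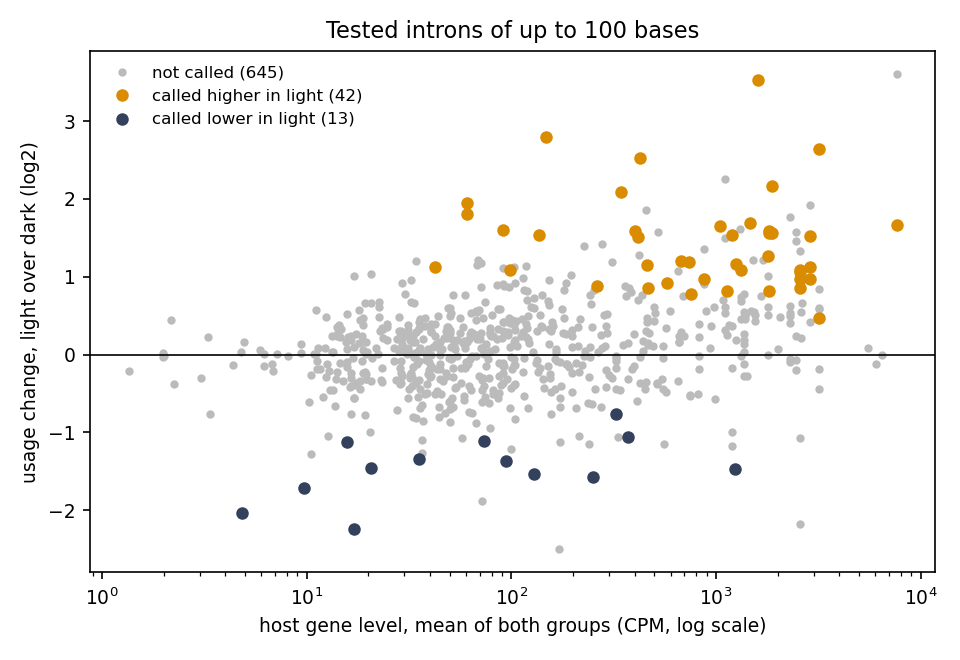
Each point is a tested intron of up to 100 bases, with the mean level of its host gene in CPM on a log axis and its change in usage, light over dark, on the log2 scale. The 42 introns called higher sit mostly in strongly expressed hosts and the 13 called lower mostly in weaker ones.

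The hosts of the 42 introns called higher were abundant genes. Their 34 genes had a median of 603 CPM in dark control libraries, against 63.1 CPM for all 553 tested host genes, and those of the 13 introns called lower had 80.1 CPM. Of the 34, 21 rose and 7 fell in light at the gene level. Of all 553 tested host genes 212 rose and 182 fell, and across all tested genes 29.1% were called higher and 27.6% lower. Of the 13 hosts of lower introns, 1 rose and 7 fell.

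Introns of antenna and carbon fixation genes were among those called higher. In the list of antenna and photosynthesis genes 25 short introns in 12 genes were members and 17 were tested, of which 8 in 6 genes rose and none fell, where 4.52% of all 3321 tested introns were called higher and 3.19% lower. Of the 17, 7 reached the count cutoff in the light pulse group alone, 4 of them among the 8, and none in the dark control group alone, so the count of calls is a description only. DESeq2 called 1 of the 17, with 10 at an unadjusted p under 0.05, and that was none of the 8 but RCA I003, described below. Fixed-weight usage of the whole list of 25 introns was 0.244, 0.242 and 0.21% in light and 0.152, 0.107 and 0.147% in darkness. Without the 3 introns of the list whose counts jumped between libraries of a group, described below, it was 0.195, 0.186 and 0.203% in light and 0.134, 0.122 and 0.129% in darkness. The groups did not overlap either way.

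The call with the lowest edgeR adjusted p in this list was intron I002 of CA1, the chloroplast beta carbonic anhydrase (AT3G01500, chr3:195338-195405, 68 bases). It held 727, 708 and 553 counts in light and 410, 331 and 390 counts in darkness, or a usage of 1.73, 1.61 and 1.69% in light and 1.29, 1.19 and 1.17% in darkness. All light pulse libraries were above all dark control libraries, with a log2 change of 0.46 ± 0.08 (SE, edgeR adjusted p = 0.00059), and the call held without any 1 library. It was lost without the 2 libraries richest in ribosomal RNA (edgeR adjusted p = 0.0693), and DESeq2 did not call it (adjusted p = 0.62). Its unspliced share averaged 15.8 ± 0.411% in light and 11.6 ± 0.51% in darkness (SD, n = 3 each).

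LHCB5 (AT4G10340), a minor antenna protein of photosystem II also known as CP26, had 3 of its 5 introns called. Intron I002 (chr4:6408558-6408646, 89 bases) had a usage of 0.136, 0.14 and 0.099% in light and 0.0471, 0.0333 and 0.0463% in darkness, without overlap (log2 change 1.57 ± 0.30, edgeR adjusted p = 0.00215), and was called without any 1 library. Its call was lost without the 2 libraries richest in ribosomal RNA (edgeR adjusted p = 0.0787), and DESeq2 did not call it (adjusted p = 0.0841). Introns I003 and I005 rose by 1.59 and 0.81 on the log2 scale, and lost their calls without some libraries: I003 without light pulse library A or dark control library C (highest edgeR adjusted p = 0.0738), and I005 without light pulse library C or dark control library B or C (0.102).

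In LHCA1 (AT3G54890), an antenna protein of photosystem I, intron I005 (87 bases) held 25, 30 and 30 counts in light and 3, 1 and 6 in darkness. Usage averaged 0.178 ± 0.0523% in light and 0.0542 ± 0.0416% in darkness (SD, n = 3 each), with a log2 change of 1.65 ± 0.45 (edgeR adjusted p = 0.027). The call was lost without light pulse library C, dark control library A or dark control library B (highest adjusted p = 0.143). LHCB3 I002 and LHCA2 I003, in antenna genes of photosystem II and photosystem I, rose by 0.82 and 1.16. LHCB3 lost its call without light pulse library C or dark control library C (highest edgeR adjusted p = 0.179), and LHCA2 without light pulse library A or dark control library C (0.0842).

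RCA (AT2G39730), Rubisco activase, which frees Rubisco of bound sugar phosphates, showed very low usage. Intron I004 (chr2:16572027-16572117, 91 bases) held 22, 27 and 25 counts in light and 7, 2 and 4 in darkness, in a gene with a mean of 10462 CPM in light and 4847 CPM in darkness. Usage averaged 0.0234 ± 0.00448% in light and 0.00704 ± 0.00395% in darkness (SD, n = 3 each), with no overlap and a log2 change of 1.67 ± 0.38 (edgeR adjusted p = 0.00896). It lost its call without dark control library B or C (highest adjusted p = 0.0601).

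Other called introns are described by the role of their gene, with no list or test behind the grouping, and PDE334, GDCH, GGT1, mtLPD1, DGAT3 and UPM1 were chosen after their values were seen. CRD1 (AT3G56940), a subunit of the cyclase that makes the fifth ring of chlorophyll, had 48, 48 and 31 counts in intron I005 (79 bases) in light and 10, 12 and 7 in darkness. Its usage was 0.182, 0.172 and 0.157% in light and 0.058, 0.08 and 0.0386% in darkness, without overlap (log2 change 1.56 ± 0.26, edgeR adjusted p = 0.00059), and was called without any 1 library. GAPA (AT3G26650), a subunit of the Calvin cycle's glyceraldehyde-3-phosphate dehydrogenase, had 19, 36 and 23 counts in intron I004 (85 bases) in light and 11, 10 and 15 in darkness. Its host gene was lower in light by 0.14 on the log2 scale, while usage rose by 1.53 ± 0.29 (edgeR adjusted p = 0.00197), and its neighbour I003 rose by 1.12. PDE334 (AT4G32260), a subunit of the chloroplast ATP synthase, had 82, 106 and 51 counts in intron I001 in light and 45, 37 and 40 in darkness, and a log2 usage change of 1.18 ± 0.18 (edgeR adjusted p = 0.0003) with a host change of 0.05. Those 4 introns, in hosts that rose, fell and hardly moved, were called without any 1 library. Without the 2 libraries richest in ribosomal RNA only GAPA I004 stayed called. DESeq2 did not call GAPA I003 (adjusted p = 0.129).

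Called introns were also found in genes of photorespiration, the pathway that recovers carbon from the glycolate made by Rubisco's oxygenation. GGT1 (AT1G23310), the peroxisomal glutamate:glyoxylate aminotransferase, had 6 short introns tested of 11, of which 4 neighbouring ones were called. Intron I005 (chr1:8269421-8269503, 83 bases) held 299, 268 and 183 counts in light and 228, 222 and 193 in darkness, and its usage was 1.31, 1.02 and 1.05% in light and 0.583, 0.612 and 0.53% in darkness. The groups were far apart (log2 change 0.97 ± 0.11, edgeR adjusted p = 1.3e-05), in a gene that itself fell by 0.48, and the call held without any 1 library. The unspliced share was 20.0, 14.7 and 15.7% in light and 9.5, 9.83 and 8.99% in darkness. Introns I002, I003 and I004 rose by 1.09, 0.86 and 1.06, and lost their calls when a library was left out. I002 stayed called only without dark control library A and I003 only without light pulse library C, while I004 was lost without light pulse library C or dark control library B or C, and the highest edgeR adjusted p of the 3 were 0.154, 0.122 and 0.0734. Tested as intron levels, I002, I003 and I004 changed by 0.62, 0.39 and 0.59 on the log2 scale and were not called (edgeR adjusted p = 0.122, 0.22 and 0.108).

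In GDCH, AGT and SHM1 2, 2 and 6 short introns were tested, of which 2, 1 and 5 had a log2 change above 0. In each gene 1 was called, where 4.52% of all 3321 tested introns were called higher. GDCH I001, in the H protein of glycine decarboxylase, had a usage of 1.01, 0.906 and 0.639% in light and 0.37, 0.37 and 0.421% in darkness (log2 change 1.15 ± 0.21, edgeR adjusted p = 0.00188), and was called without any 1 library. Its call was lost without the 2 libraries richest in ribosomal RNA (edgeR adjusted p = 0.0862), and DESeq2 did not call it (adjusted p = 0.127). In AGT, serine:glyoxylate aminotransferase, intron I001 (78 bases) held 24, 25 and 30 counts in light and 4, 5 and 9 in darkness. In SHM1, mitochondrial serine hydroxymethyltransferase, intron I004 (82 bases) held 23, 32 and 17 counts in light and 6, 9 and 13 in darkness. AGT rose by 1.53 ± 0.36 (edgeR adjusted p = 0.0119) and SHM1 by 1.27 ± 0.31 (edgeR adjusted p = 0.0144), neither with overlap in usage. AGT lost its call without light pulse library C, dark control library A or dark control library B (highest edgeR adjusted p = 0.0727), and SHM1 without light pulse library B or dark control library A (0.0916).

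Intron I002 of mtLPD1 (AT1G48030), a mitochondrial lipoamide dehydrogenase used by glycine decarboxylase and other complexes, had about as many counts as its own junction in light. At 100 bases it stands at the width limit. Its counts were 133, 146 and 95 in light and 57, 53 and 47 in darkness, and those of its own junction 121, 129 and 73 in light and 125, 84 and 91 in darkness. The unspliced share was thus 52.4, 53.1 and 56.5% in light and 31.3, 38.7 and 34.1% in darkness. That share leaves out a junction sharing 1 end with the intron, which had 132 reads beside 623 of the own junction. Usage was 3.85, 3.83 and 3.66% in light and 2.19, 2.26 and 1.73% in darkness. It rose by 0.88 ± 0.14 on the log2 scale (edgeR adjusted p = 0.00059), and the call held without any 1 library. The call was lost without the 2 libraries richest in ribosomal RNA (edgeR adjusted p = 0.0552), and DESeq2 did not call it (adjusted p = 0.141).

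Further rises came from genes of other roles. DGAT3 (AT1G48300), a soluble diacylglycerol acyltransferase, fell by 1.29 at the gene level while intron I001 (90 bases) held 14, 19 and 20 counts in light and 9, 8 and 10 in darkness. Usage was 0.535, 0.672 and 0.945% in light and 0.123, 0.103 and 0.135% in darkness, a log2 change of 2.52 ± 0.32 (edgeR adjusted p = 3.4e-05). PYK10 (AT3G09260), the beta-glucosidase of endoplasmic reticulum bodies, had 39, 46 and 8 counts in intron I005 (89 bases) in light and 3, 10 and 3 in darkness, so light pulse library C lay near the dark control range. This intron held under 50 counts in every library. It therefore lay outside the set of introns with jumping counts described below, to which introns I002 and I003 of the gene belong. Its log2 change was 2.64 ± 0.58 (edgeR adjusted p = 0.0291), lost without light pulse library A or B or dark control library A or C (highest adjusted p = 0.172). The intron I001 of AT5G20700 (79 bases) rose by 1.59 ± 0.30 (edgeR adjusted p = 0.00194), with usage of 0.635, 0.667 and 0.596% in light and 0.32, 0.158 and 0.152% in darkness.

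The largest change in usage among called short introns belonged to SAG21 (AT4G02380), a late embryogenesis abundant protein known from senescence and stress, in which the gene's count moved more than the intron's. Its intron I001 (chr4:1046634-1046729, 96 bases) held 10, 10 and 13 counts in light and 52, 55 and 55 in darkness. The gene had 601, 799 and 624 counts in light and 42324, 45343 and 29552 in darkness. Usage was 1.66, 1.25 and 2.08% in light and 0.123, 0.121 and 0.186% in darkness, a log2 change of 3.53 ± 0.32 (edgeR adjusted p = 1.5e-06). The count of the intron itself fell by 1.99 on the log2 scale when tested as a level. Its own junction had 9 reads over the 6 libraries, whereas a junction that shares 1 end with it had 20433, so most spliced reads there did not use the listed boundaries.

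A similar pattern was seen in UPM1 (AT5G40850), the methyltransferase that starts the siroheme branch of tetrapyrrole synthesis. The gene fell by 2.09 on the log2 scale and intron I005 held 12, 12 and 8 counts in light and 15, 15 and 8 in darkness, so the usage change of 2.09 ± 0.35 (edgeR adjusted p = 0.00072) stood beside similar intron counts in the groups. Its own junction had 25 reads in all and a junction sharing 1 end had 1821.

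**Figure D4:**
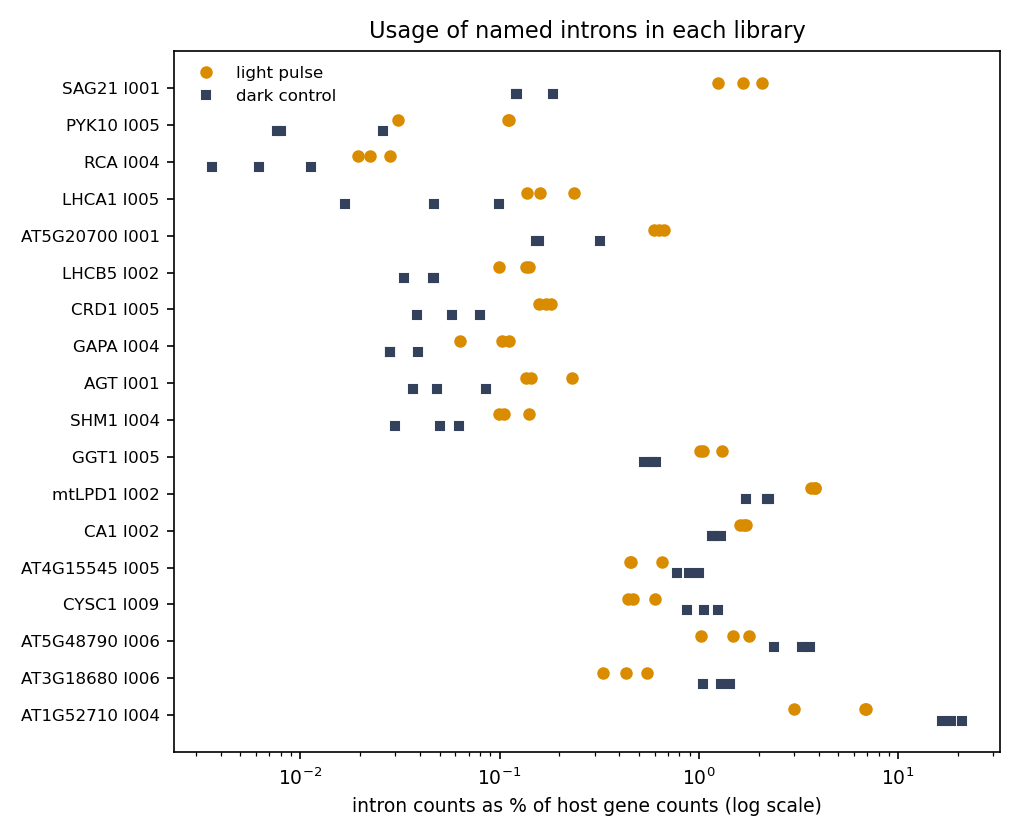
Intron counts as a percentage of host gene counts on a log axis, for introns named in the text, with 1 mark per library, light pulse circles above dark control squares in each row. In the rows from SAG21 to CA1 all circles lie right of all squares, and in the 5 lowest rows, AT4G15545 to AT1G52710, all circles lie left of them.

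Introns called lower were fewer and, by median level, lay in weaker genes than those called higher, though not weaker than all tested hosts. CYSC1 (AT3G61440), beta-cyanoalanine synthase, which detoxifies cyanide, had 22, 17 and 12 counts in intron I009 (chr3:22737444-22737518, 75 bases) in light and 66, 53 and 47 in darkness. Usage was 0.606, 0.442 and 0.466% in light and 1.25, 1.06 and 0.875% in darkness, without overlap (log2 change -1.06 ± 0.22, edgeR adjusted p = 0.00383), and the call held without any 1 library. DESeq2 did not call it (adjusted p = 0.194). The unspliced share averaged 4.95 ± 1.09% in light and 10.2 ± 1.48% in darkness (SD, n = 3 each).

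Intron I006 of AT3G18680 (99 bases) fell by 1.53 ± 0.34 on the log2 scale (edgeR adjusted p = 0.00742), with 6, 5 and 6 counts in light and 18, 19 and 23 in darkness and a host change of 0.02, and was called without any 1 library. Its call was lost without the 2 libraries richest in ribosomal RNA (edgeR adjusted p = 0.12), and DESeq2 did not call it (adjusted p = 0.164). It reached the count filter's cutoff in the dark control group alone. In AT5G48790 intron I006 fell by 1.11 ± 0.29 (edgeR adjusted p = 0.0211) and in AT4G15545 intron I005 fell by 0.77 ± 0.23 (edgeR adjusted p = 0.0441). AT5G48790 lost its call without light pulse library B or C or dark control library A or B (highest edgeR adjusted p = 0.125), and AT4G15545 without any library other than light pulse library A (0.185). The intron of AT1G52710 (I004, 69 bases) had a usage of 2.99, 6.82 and 6.9% in light and 21.0, 18.4 and 16.6% in darkness, the largest drop in percentage points among these 5, in a gene of 6.89 CPM in light and 12.6 CPM in darkness (log2 change -1.71 ± 0.36, edgeR adjusted p = 0.00509). It has no own junction in the table, and a junction sharing 1 of its ends had 102 reads.

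The junction counts gave a second measure, which does not use the gene count. Of the 42 introns called higher, 40 had 10 or more own-junction reads in every library, and their mean unspliced share was higher in light in all 40, with no overlap between the groups in 39. Of the 13 called lower, 7 had such junction counts, and all 7 were lower in light without overlap. The intron counts are the same in both measures, and all 42 and all 13 were already without overlap in usage. Most of this separation was therefore to be found in advance, and it is a description, not an independent repeat. When own-junction counts replaced the host count in the edgeR fit, 1 short intron was called higher and 1 lower among the 573 that could be tested, with 87 higher and 31 lower at an unadjusted p under 0.05. Of the called introns that could be fitted 52 of 53 kept their sign, the exception being SAG21 at -1.4.

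Not all of the tested introns were constitutive by their junctions. A junction sharing exactly 1 end with the intron and holding 10 or more reads was found for 2655 of the 50698 introns with an expressed host (5.24%), but for 217 of the 700 tested (31.0%) and 19 of the 55 called. For most of the named introns such reads were few beside the own junction: CA1 I002 had 19188 own-junction reads and 589 others, and GGT1 I005 had 9897 and 51. The called introns SAG21 I001, UPM1 I005, AT1G52710 I004 and DUF5 I007 (0 own-junction reads and 56 others) were the other way round. So was AT1G07940 I002, in an elongation factor gene with near-identical copies, with 55 own-junction reads and 1970 others.

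Gene lists outside photosynthesis gave little. The SR splicing factors, which bind precursor RNA and guide the choice of splice sites, held 70 short introns in 19 genes, and none passed the count filter. Their fixed-weight usage was 0.0849, 0.0567 and 0.0923% in light and 0.0631, 0.0484 and 0.0777% in darkness, which overlapped. Other splicing regulators held 60 short introns with 2 tested, the clock genes 66 with 1 tested, flavonoid genes 15 with 2 tested and light signalling genes 25 with 1 tested, and neither edgeR nor DESeq2 called any of these 6 or gave an unadjusted p under 0.05. The 27 introns of nucleolar genes and 5 of heat shock genes had none tested. Among 28 introns of dark and sugar starvation genes 1 was tested and called, that of SAG21. The log2 difference in fixed-weight usage was 0.30 in SR genes and 0.23 in clock genes. It was -0.23 in light signalling, -0.13 in nucleolar, -0.10 in flavonoid and -0.08 in other splicing regulator genes. In dark and sugar starvation genes without SAG21 it was -0.28, and the groups overlapped in each of these lists. Heat shock genes averaged 0.0555% in light and 0.144% in darkness. Most introns of these lists were not tested, so these values are a description and nothing is said of a change in them.

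The short intron with the most own-junction reads was I004 of RBCS3B (AT5G38410), a small subunit of Rubisco (chr5:15378046-15378135, 90 bases). Its own junction held 11356, 11504 and 8493 reads in light and 8470, 7366 and 8994 in darkness, and its usage was 1.57, 1.63 and 1.36% in light and 1.54, 1.58 and 1.49% in darkness. The groups overlapped (log2 change -0.01 ± 0.07, edgeR adjusted p = 0.955) although the gene rose by 0.61. RBCS3B lies beside the near-identical RBCS2B and RBCS1B, whose introns had log2 changes of 0.09 and -0.12, and reads may have been split or shared among the 3 copies. RBCS2B I002 had 40757 own-junction reads and 51171 of junctions sharing 1 end. The narrowest intron with 10 or more junction reads in every library was I002 of AT4G24930 (59 bases), with a usage of 0.95, 1.39 and 0.926% in light and 0.375, 0.54 and 0.823% in darkness, which did not overlap but was not called (0.91 ± 0.42, edgeR adjusted p = 0.221).

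A set of short introns had counts that jumped between libraries of the same group. Of the 99 short introns that reached 50 counts in a library, 20 reached 50 in a group and differed 5-fold or more between libraries of that group (20.2%). The same held for 11 of 268 middle-width introns (4.1%) and 3 of 151 of 500 bases or more (1.99%). The host genes of the 20 were abundant, with a median of 26786 counts against 4695 for the other 79. This difference in host level goes with the difference between width classes, and its part was not tested. These introns were picked for their spread, and the examples that follow were chosen after their values were seen.

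Intron I003 of RCA (chr2:16571473-16571553, 81 bases), the neighbour of I004 above, held 387, 324 and 40 counts in light and 13, 5 and 15 in darkness. Its log2 change of 3.60 ± 1.02 was larger than that of any called short intron, and it was not called (edgeR adjusted p = 0.148). The own junction was steady, with 8912, 9523 and 7321 reads in light and 5004, 4361 and 5224 in darkness. In CA1, intron I003 held 345, 361 and 238 counts in light and 235, 27 and 247 in darkness, while its own junction held 2205, 2203 and 2587 reads in the dark control libraries. A single low library, dark control B, stood apart there.

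Neighbouring jumping introns of a gene differed in pattern in GGT1 and were alike in part in PYK10. In GGT1, intron I008 held 7, 104 and 4 counts in light and 113, 149 and 113 in darkness, and I009, the next listed intron, held 100, 94 and 59 in light and 3, 160 and 2 in darkness. Light pulse libraries A and C were thus low in I008 and high in I009, and dark control libraries A and C the reverse. In PYK10, intron I003 held 18, 212 and 10 counts in light and 8, 165 and 153 in darkness. Its neighbour I002 held 19, 235 and 18 in light and 21, 54 and 77 in darkness, so both stood high in light pulse library B and were lowest, within the dark control group, in library A. In CP5 intron I001 held 19, 11 and 14 counts in light and 190, 16 and 168 in darkness, and in PSBO1, a subunit of the oxygen-evolving complex, intron I002 held 237 counts in dark control library B and 12 to 19 in the other 5 libraries.

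The libraries that stood low varied from intron to intron. The lowest library of the group with the jump was light pulse A, B or C in 3, 3 and 7 cases (C being the library with the fewest gene counts, 8695843) and dark control A, B or C in 2, 4 and 4 cases, and 10 introns jumped in the light pulse group alone and 7 in the dark control group alone. In 15 of the 20 the usage of the groups overlapped. Of the 20, 14 were tested and edgeR called none, with 1 at an unadjusted p under 0.05. DESeq2 called 1 of the 14, RCA I003 (adjusted p = 0.00657). Leaving all 20 out changed the class little: fixed-weight usage was then 0.155, 0.151 and 0.152% in light and 0.136, 0.13 and 0.13% in darkness, and the difference from middle-width introns 0.13 on the log2 scale (exact permutation p = 0.1).

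**Figure D5:**
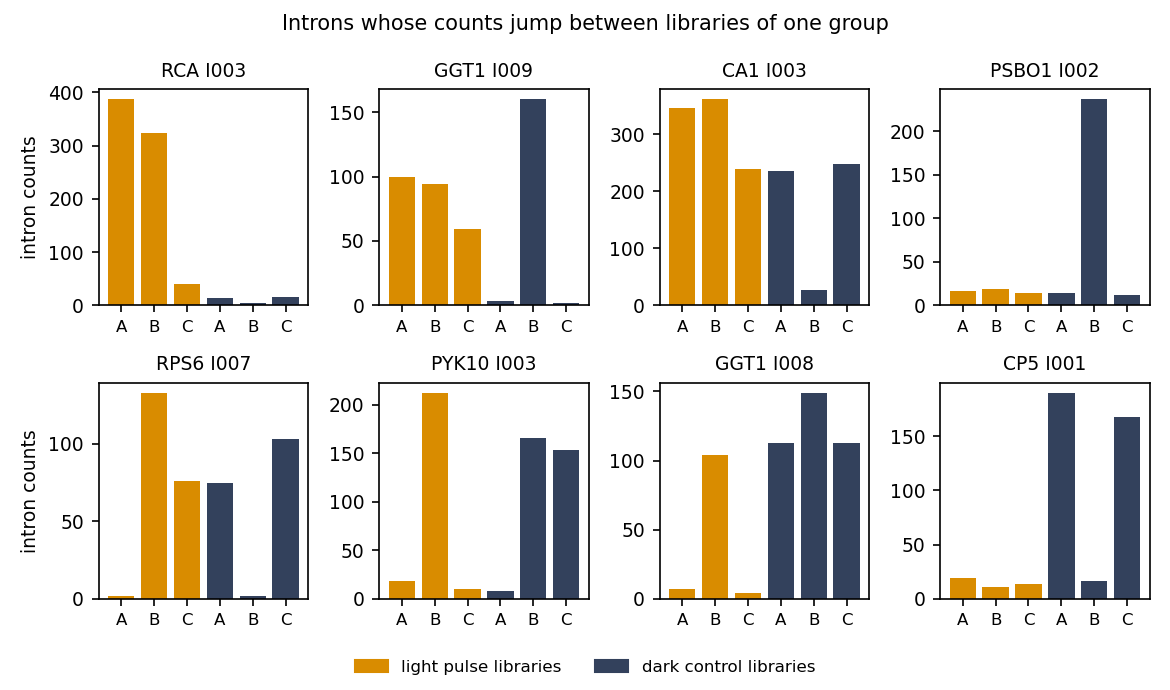
Counts of 8 short introns in each library, light pulse libraries A to C left of dark control libraries A to C, with a separate linear axis from 0 in each panel. Counts jump within a group, as in RCA I003 with 387, 324 and 40 counts in light, and the libraries that are high differ from intron to intron.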

How the data were processed

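RNA-seq libraries of light-pulsed (3) and dark control (3) seedlings were analysed. The submitters' processing notes name TopHat2 2.0.9, the TAIR10 build and R 3.1. The authors deposited raw read counts per gene, intron and splice junction, and 3 such tables with 6 library columns each were used here. Counts of short introns depend on how reads crossing an exon border were counted, which is not given in the sources used here, nor are the counting program and its strand setting. Column letters were mapped to groups only.

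Intron counts were fitted with edgeR 4.0.16 (R 4.3.3), with filterByExpr by group, an expressed host and the log of the host count plus 0.5 as offset. Adjusted p are Benjamini-Hochberg values over all 3321 tested introns, called under 0.05. The fit was tested on simulated data. Summed usage was compared by exact permutation over libraries. DESeq2 1.42.0, other offsets, filters, widths and left-out libraries were alternatives, and leaving out introns with jumping counts, fixed weights and a limit to introns with own junctions were added after seeing the data. Host genes were fitted with TMM and the same test.

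Named introns were called ones with a mean of 20 or more counts where they were higher and separate groups (the 10 highest and up to 10 lowest changes), the 6 of highest usage, up to 2 called per gene list, and those with the most junction reads and the narrowest junction. Members and lists were chosen with earlier results of these data known. Symbols came from RefSeq, which listed 16658 of 16687 host loci. No sequences were analysed here.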

Additional observations from a re-analysis of the deposited data

How the results depend on the processing

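The summed measures kept their direction under every alternative that was run: pooled usage of short introns differed by 0.08 to 0.22 on the log2 scale, its difference from middle-width introns by 0.12 to 0.26 and that from introns of 500 bases or more by 0.04 to 0.24. Counts of single introns did not hold as well. Beside 42 higher and 13 lower, the introns whose level, not usage, changed numbered 171 higher and 83 lower. Own junctions as denominator gave 1 and 1, leaving out the 2 libraries richest in ribosomal RNA 10 and 3, DESeq2 12 and 0, and a width limit of 80 bases 18 and 3. Requiring a mean of 20 counts left 6 lower. Leaving out a library gave 29 to 43 higher and 5 to 9 lower. The like counts over all tested introns are not given for these alternatives. The cause of these differences was not tested, beyond the smaller number of introns or libraries that some alternatives hold. The usage change of SAG21 I001, 3.53 on the log2 scale, turned to -1.99 as an intron level and -1.4 with its own junction as denominator. Of the 55 called introns, 3 (GGT1 I005, DGAT3 I001 and GAPA I004) kept their call under every change of fit, filter or libraries in which they were fitted, other than own junctions. DGAT3 I001 reached the count filter's cutoff in the light pulse group alone and was not fitted under the stricter filter. None of the 3 is under 80 bases wide.

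With the column letter as a replicate block 48 were called higher and 11 lower, of which 41 and 10 were called without it. No label pairs libraries by letter, and deviations of same-letter libraries correlated at -0.067, 0.12 and -0.0405. Among libraries of unlike letter, light pulse A and dark control C correlated at 0.129 and light pulse C and dark control A at 0.0961. The remaining pairs were negative. No block other than the letters was fitted, so a batch shared across the groups was not tested.

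Depth also limits the single introns. Over the 61076 short introns each library held 39950 to 56341 counts, and 1.15% of the introns could be tested.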

Other observations

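Among the called introns not described above, neighbours I009 and I010 of SPT1 (AT3G48780), a subunit of serine palmitoyltransferase, the first enzyme of sphingolipid synthesis, both rose. Intron I009 had a usage of 3.58, 5.39 and 3.86% in light and 0.724, 1.61 and 1.37% in darkness (log2 change 1.80 ± 0.33, edgeR adjusted p = 0.00136), and I010 had 4.09, 3.28 and 2.89% in light and 0.814, 1.23 and 0.585% in darkness (1.95 ± 0.35, edgeR adjusted p = 0.00136). The gene fell by 1.21, and the intron counts were similar in the groups, at 14, 23 and 12 in light and 8, 17 and 14 in darkness for I009. Both calls held without any 1 library and in DESeq2, but were lost without the 2 libraries richest in ribosomal RNA (edgeR adjusted p = 0.0536 for I009 and 0.086 for I010).

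Intron I002 of ADF11, an actin depolymerizing factor, had a mean usage of 6.72 ± 1.23% in light and 27.5 ± 5.06% in darkness (SD, n = 3 each), with no overlap (log2 change -2.04 ± 0.42, edgeR adjusted p = 0.00413, and 0.0625 without dark control library A). The gene had 5.41 CPM in light and 4.25 CPM in darkness, and the intron held 4, 4 and 3 counts in light. In BEH1, a relative of the brassinosteroid transcription factor BZR1, the sole listed intron had a usage of 2.6, 2.3 and 1.23% in light and 6.03, 6.27 and 5.0% in darkness, but its call was lost without any 1 of the 6 libraries (highest edgeR adjusted p = 0.124). Leaving out a library this way changes the introns that pass the filter as well as the fit. The introns of ADF11 and BEH1 both reached the count filter's cutoff in the dark control group alone.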
